A study of Mus musculus with 5 samples.

Results

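The genes described here encode splicing factors and RNA helicases. They were taken by name from a table of chromatin accessibility at transcription start sites: every gene whose symbol begins with Srsf, Snrp, Sf3a, Sf3b, Hnrn, Prpf, U2af, U2surp, Celf, Mbnl, Tra2, Srrm or Luc7l, with a numbered Ddx, Dhx, Lsm, Rbm or Clk, or with Rbmx. The rule found 121 of the 8034 genes in the table, with 543 of its 34714 sites. ATAC-seq, in which a transposase inserts adapters into open chromatin, was applied to the nuclei of C17.2, an immortalised line of multipotent neural stem cells of CD1 x C57BL/6 mouse background. The cells were grown with fetal serum and then moved to serum-free Knockout DMEM with GlutaMAX and N2 supplement to induce neural differentiation. Libraries came from cells before the medium change (0 h) and from cells 0.5, 1, 1.5 and 2 h after it, with 1 library per time. All 5 libraries are of the same single line, and the design text of the series mentions no library of 0.5 or 1.5 h.

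Splicing removes introns from the primary transcript. The spliceosome is assembled on each intron from small nuclear ribonucleoproteins (snRNPs), whose Sm or Lsm proteins form a ring around the RNA, and is remodelled by DEAD-box and DEAH-box helicases. SR proteins mostly favour and hnRNP proteins often repress the use of nearby splice sites, and CELF, muscleblind and many RBM proteins set tissue-specific exon choice, which is extensive in developing neurons.

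Each library's value at a site is a whole number from 0 to 10, taken here to count how many entries of the BED file of a library overlap it. A site with 1 or more entries is called covered. A gene with several sites is represented by the one whose mean over all libraries is highest. Read depth is unknown, a value of 0 does not show closed chromatin, and with 1 library per time no difference between times has a replicate check, a test or an error. "Higher" and "lower" below compare single libraries only. The 4 comparisons with 0 h also share the 0 h library, so its particular values enter all of them.

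Facts of the whole table set the scale. Over all sites the 5 libraries held 42527, 56773, 45254, 65824 and 59437 entries, in order of time. Of 15 neural progenitor markers 9 were in the table. Sox9, a progenitor transcription factor, held 4 entries in every library and Cdh2, N-cadherin, held 3, 7, 5, 7 and 5. Pax6, Sox3 and Msi1, which also mark neural progenitors, were at 0 throughout, and Nes, the progenitor filament nestin, held 2 entries at 1.5 h and 0 at the other times. Of 24 markers of other cell types 8 were in the table. Olig1, Olig2 and Mbp of oligodendrocytes, Epcam of epithelia and Rbfox3 of neurons were at 0 throughout, Map2, a neuronal microtubule protein, and Cx3cr1 of microglia held 2 in every library, and Syp of synaptic vesicles held 1 in every library but 1 h, where it was at 0. Several of these sites lie far inside the gene, at 342131 bp for Rbfox3, 70495 bp for Msi1, 56864 bp for Cx3cr1 and 7454 bp for Pax6, so neither their zeros nor the Cx3cr1 entries need be those of a promoter.

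The stretches of promoter below show the positions behind the main patterns. Each runs from 100 bases before to 30 bases from an annotated RefSeq start (GRCm38.p6), 5′ to 3′ on the gene's strand, and capitals mark the bases of the deposited sites, up to the edge of the stretch where a site runs past it. A gene can have several annotated starts: the start shown is the one with most sites around it, whereas distances given further on are from the outermost 5′ end of the gene. Srsf7 and Hnrnph1 held equal values at all 5 times.
Srsf7 (chr17:80207276-80207405, minus strand): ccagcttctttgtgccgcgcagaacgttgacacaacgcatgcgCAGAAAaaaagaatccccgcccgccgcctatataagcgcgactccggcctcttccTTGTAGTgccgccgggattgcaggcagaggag
Hnrnph1 (chr11:50377697-50377826, plus strand): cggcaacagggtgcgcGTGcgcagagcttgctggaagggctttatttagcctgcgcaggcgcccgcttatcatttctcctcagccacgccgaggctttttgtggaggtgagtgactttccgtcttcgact
In Srsf4 and Hnrnpu the start region stands for genes in which more sites, or more entries, were covered at later times.
Srsf4 (chr4:131873539-131873668, plus strand): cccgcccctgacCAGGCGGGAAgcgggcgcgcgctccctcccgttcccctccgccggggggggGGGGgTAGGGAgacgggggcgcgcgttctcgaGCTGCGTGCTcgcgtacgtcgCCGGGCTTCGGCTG
Hnrnpu (chr1:178337786-178337915, minus strand): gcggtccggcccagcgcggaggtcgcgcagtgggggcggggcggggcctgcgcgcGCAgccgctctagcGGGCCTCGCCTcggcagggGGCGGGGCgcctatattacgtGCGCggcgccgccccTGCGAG
Lsm7 had its highest value at 0.5 h, the Celf2 values differed from site to site within the stretch shown, and the Mbnl1 sites in it were covered at 2 h only.
Lsm7 (chr10:80855180-80855309, minus strand): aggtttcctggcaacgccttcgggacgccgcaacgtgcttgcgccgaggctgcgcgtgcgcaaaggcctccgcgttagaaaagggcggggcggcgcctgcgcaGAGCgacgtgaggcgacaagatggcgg
Celf2 (chr2:6872006-6872135, minus strand): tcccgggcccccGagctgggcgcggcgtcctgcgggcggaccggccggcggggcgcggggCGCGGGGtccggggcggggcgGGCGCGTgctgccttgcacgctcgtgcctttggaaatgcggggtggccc
Mbnl1 (chr3:60501079-60501208, plus strand): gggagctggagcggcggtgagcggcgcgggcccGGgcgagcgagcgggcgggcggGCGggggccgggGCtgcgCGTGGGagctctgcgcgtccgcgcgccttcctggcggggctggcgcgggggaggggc
Srsf12 and Ddx4 were covered in no library.
Srsf12 (chr4:33209172-33209301, plus strand): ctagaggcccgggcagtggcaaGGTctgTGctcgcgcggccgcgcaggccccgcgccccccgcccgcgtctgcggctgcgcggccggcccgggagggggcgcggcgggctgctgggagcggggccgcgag
Ddx4 (chr13:112652281-112652410, minus strand): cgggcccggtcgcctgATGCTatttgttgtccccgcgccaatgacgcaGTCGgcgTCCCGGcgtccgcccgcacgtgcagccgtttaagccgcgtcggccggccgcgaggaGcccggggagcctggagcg
In the Srsf4 stretch all 7 sites held 4 entries at 2 h, whereas at 0 h the 3 farthest upstream held 2 and the other 4 held 0. All 5 capitalised sites of Hnrnpu held 2, 4, 2, 4 and 4 entries in order of time. In Celf2 the site 19 bp before the start held 0 entries at every later time and 2 at 0 h, and the site 88 bp before it held 2, 0, 2, 4 and 2. In Mbnl1 all 4 sites were at 0 until 2 h, when each held 3.

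Most splicing and helicase genes had a covered start site in every library. At 0 h 108 of the 121 were covered (89.3%, Wilson 95% interval 82.5 to 93.6%), against 72.8% of all genes. At the 4 later times, in order, 109, 108, 111 and 109 were covered, which is 90.1, 89.3, 91.7 and 90.1% of them, against 76.5, 72.4, 79.3 and 78.3% of all genes. The interval covers counting error over genes only. The highest site stands for a gene, and the 121 genes had a median of 3 sites, against 2 over all genes. The shares and means given here were not adjusted for this. In all 5 libraries 105 were covered (86.8%, against 69.0% of all genes), in none 10 (8.26%, against 19.2%), and in some 6. The covered genes held a mean of 2.76, 2.94, 2.76, 2.90 and 2.54 entries in order of time, against 2.58, 2.77, 2.55, 2.75 and 2.53 over all covered genes. A mean of 4 or more entries over the 5 libraries was reached by 15 of the 121 (12.4%, against 6.61% of all genes).

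**Figure D1:**
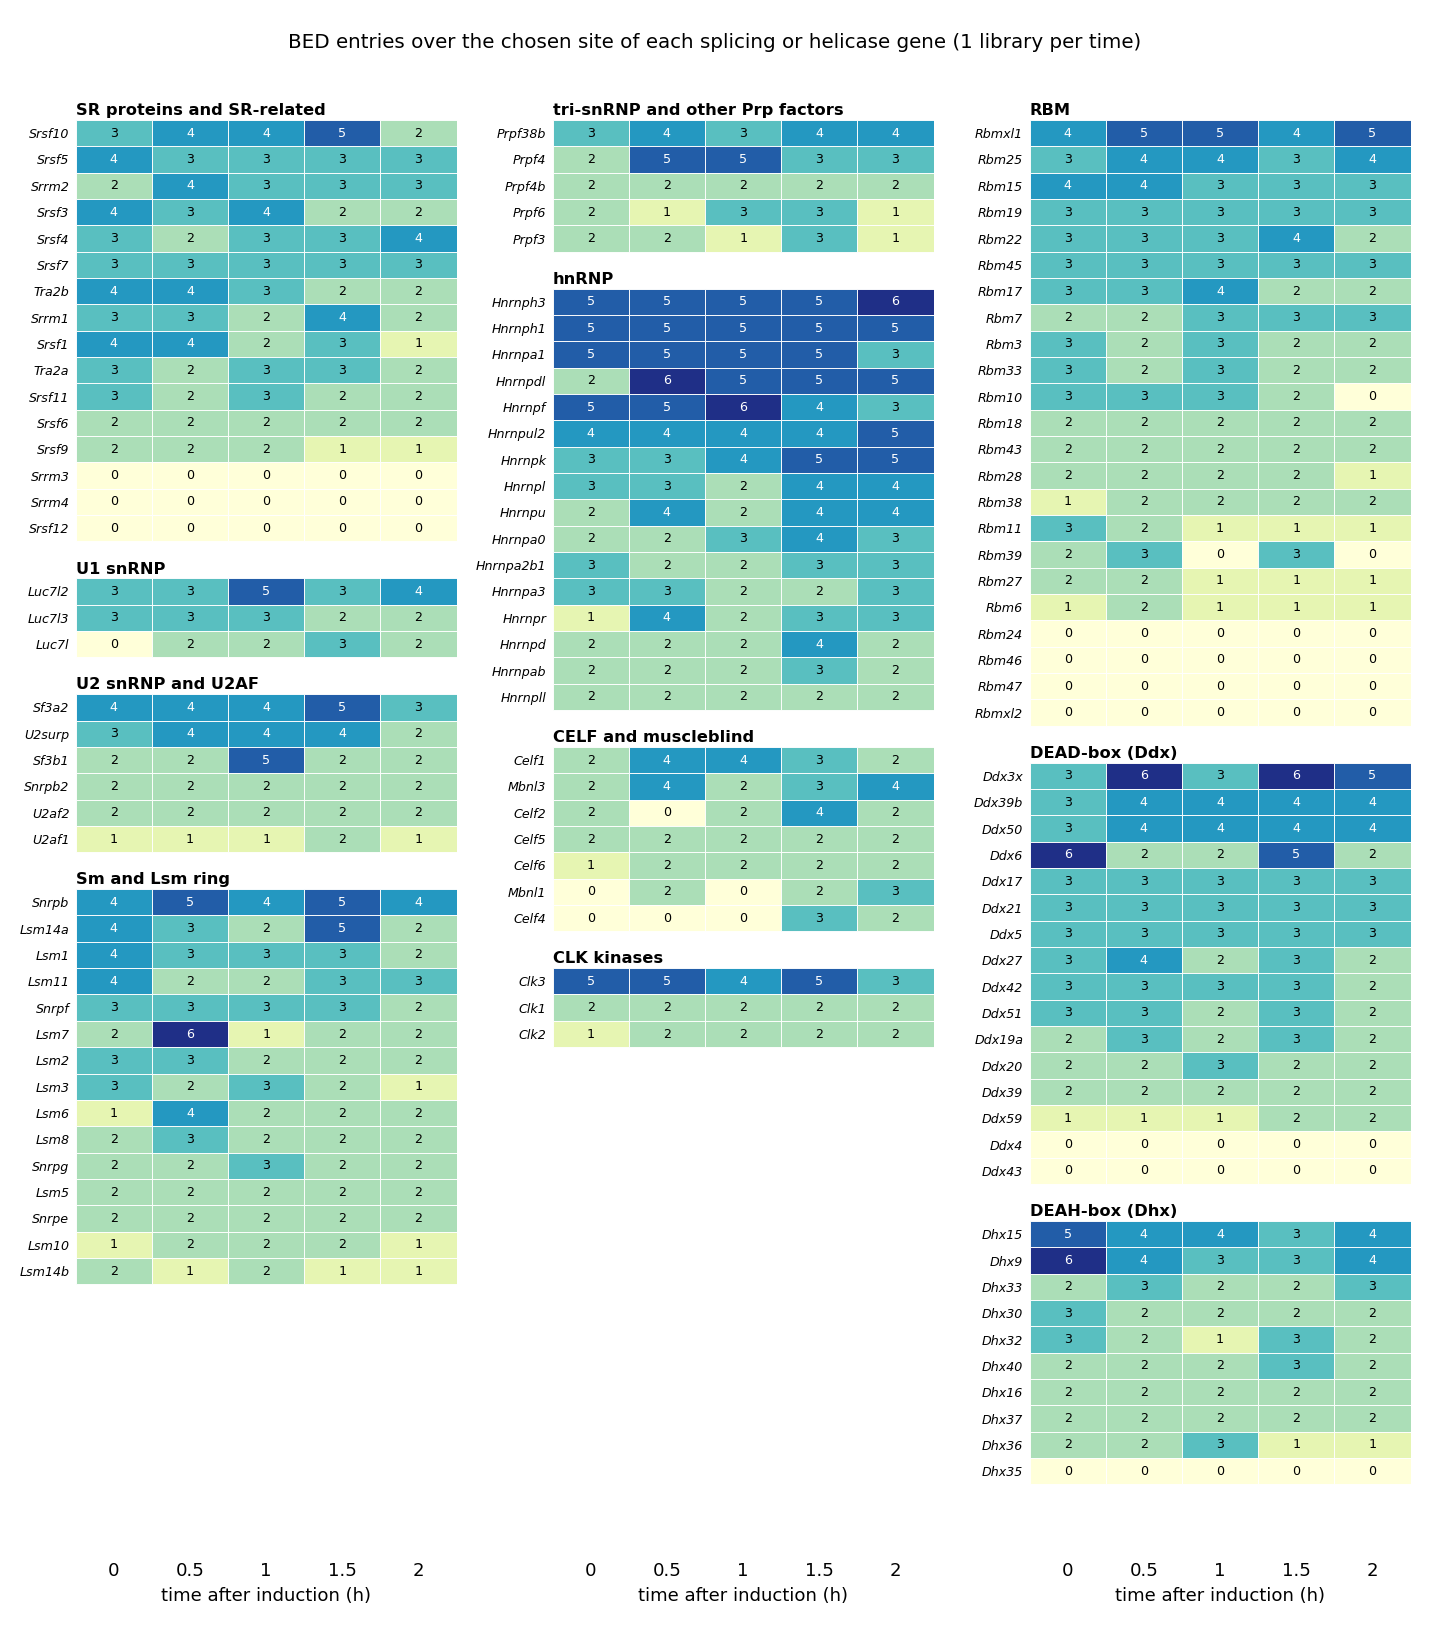
Entries over the chosen site of each gene reported here, in rows grouped by role and ordered by mean within a role, with time after induction in columns (h); each cell is 1 library and darker means more entries. Hnrnph3 and Hnrnph1 stand at the top of the hnRNP group with 5 or 6 entries in every library, and 10 genes in the SR, RBM, DEAD-box and DEAH-box groups are at 0 throughout.

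The genes with the highest means came from several roles. Hnrnph3 and Hnrnph1, which bind G-rich stretches, held 5 in each library, apart from 6 for Hnrnph3 at 2 h. Snrpb, an Sm ring protein, held 4, 5, 4, 5 and 4. These 3 genes hardly varied. Hnrnpf, a relative of Hnrnph1, held 5, 5, 6, 4 and 3, and Hnrnpa1, a repressor of exon inclusion, held 5 at each time up to 1.5 h and 3 at 2 h. Clk3, a kinase of SR proteins, held 5, 5, 4, 5 and 3, and Rbmxl1, a retrotransposed relative of the hnRNP G gene, held 4, 5, 5, 4 and 5. Ddx3x, an X-linked DEAD-box helicase with a role in translation initiation, held 3, 6, 3, 6 and 5, and Hnrnpdl held 2, 6, 5, 5 and 5. Hnrnpf, Hnrnpa1 and Clk3 thus had their lowest value at 2 h, whereas Hnrnpdl had its lowest at 0 h.

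Equal values at all 5 times were held by 21 covered genes (17.4% of the 121, against 11.1% of all genes). Hnrnph1 did so at 5 entries. The helicase genes Ddx5, Ddx17 and Ddx21 and the genes Srsf7, Rbm19 and Rbm45 did so at 3 entries. The other 14, among them Srsf6, U2af2, Clk1, Snrpe, Lsm5, Celf5 and Dhx16, did so at 2. Ddx5 and Ddx17 are paralogous helicases that act in splicing and as transcriptional coactivators, and U2af2 binds the polypyrimidine tract before the 3′ splice site. Among genes covered in all libraries the share with equal values was 20%, against 16.1% of all genes, and the share with a range of 2 or more entries was 40%, against 40.8%.

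In the 0.5 h library against 0 h, 30 of the 121 genes had more entries and 21 fewer, where 28.0% of all genes had more and 15.7% fewer. A 2-fold difference on the scale of log2(entries + 1), which understates the difference of low values, was passed upward by 7 (5.79%, against 8.05% of all genes) and downward by 2 (1.65%, against 2.20%). Coverage was gained by 2 of the 13 genes that lacked it at 0 h, beside 17.4% of all such genes, and lost by 1 of the 108 that had it, beside 1.40%.

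At 1 h against 0 h, 28 genes had more entries and 26 fewer, beside 20.4% and 22.2% of all genes. The 2-fold difference was passed by 4 upward and 4 downward, beside 4.62% and 5.04% of all genes. Coverage was gained by 1 and lost by 1, beside 10.0% of all uncovered and 4.39% of all covered genes.

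At 1.5 h against 0 h, 40 genes had more entries and 26 fewer, beside 31.2% and 17.9% of all genes. Among genes covered at 0 h the shares were 34.3% and 24.1% of the 121, against 33.3% and 24.6% of all genes. The 2-fold difference was passed by 5 upward and 1 downward, which is 4.13% and 0.826% of the 121, beside 11.2% and 1.83% of all genes. Coverage was gained by 3 of 13 and lost by 0 of 108, beside 25.7% and 0.718% of all such genes.

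At 2 h against 0 h, 29 genes had more entries and 43 fewer, beside 25.6% and 23.0% of all genes. The 2-fold difference was passed by 5 upward and 6 downward, which is 4.13% and 4.96% of the 121, beside 9.35% and 3.47% of all genes. Coverage was gained by 3 of 13 and lost by 2 of 108, beside 24.0% and 1.40%. Shares were also taken by the value at 0 h, in groups of as few as 9 of the 121. The shares of all genes, here and beside the roles below, include genes at 0 at 0 h, which cannot be lower. Among genes covered at 0 h, 39.8% of the splicing and helicase genes were lower at 2 h, against 31.5% of all genes. Higher were 24.1%, against 26.2%. Among those with 4 or more entries at 0 h the lower shares were 71.4% (15 of 21) and 70.4%, among those with 3 entries 54.1% (20 of 37) and 43.0%, among those with 2 entries 19.5% (8 of 41) and 14.8%, and among those with 1 entry 0% (0 of 9) and 3.87%. The higher shares, in the same order, were 14.3, 24.3, 19.5 and 66.7% of the 121. Over all genes they were 5.32, 16.0, 32.1 and 54.9%.

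Over the 121 genes the median log2 ratio was 0.00 at each later time, as over all genes. The mean log2 ratio was 0.08, 0.00, 0.10 and -0.07 in order of time, against 0.12, -0.01, 0.17 and 0.08 over all genes. A 2-fold difference at any later time was passed by 17 of the 121 (14.0%, against 22.6% of all genes). On the scale of log2(entries + 1), any gain from 0 at 0 h passes 2-fold upward. At 2 h such gains were 524 of the 751 upward differences over all genes, and 3 of 5 over the 121. Genes at 0 at 0 h were a smaller part of the 121 than of all genes. The unscaled shares past 2-fold, here, above and below, thus do not compare like with like. The libraries differ in total entries, and the part of this in the counts was not tested. Scaling to equal totals multiplied the later libraries by 0.749, 0.940, 0.646 and 0.715, all below 1. A covered gene with equal entries thus always counts as lower on that scale, and a gene at 0 in both libraries stays equal. Genes at 0 made up 10.7% of the 121 at 0 h and 27.2% of all genes. Scaled counts of higher and lower genes, and positions relative to the median of all genes, therefore do not compare like with like, here and below. The median of all genes shifted by -0.08, -0.04, -0.16 and -0.22 in order of time. On that scale 2, 1, 3 and 3 of the 121 were past 2-fold upward, beside 3.62, 2.08, 5.63 and 4.69% of all genes, and 3, 4, 5 and 10 downward, beside 3.41, 5.04, 4.53 and 6.02%.

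**Figure D2:**
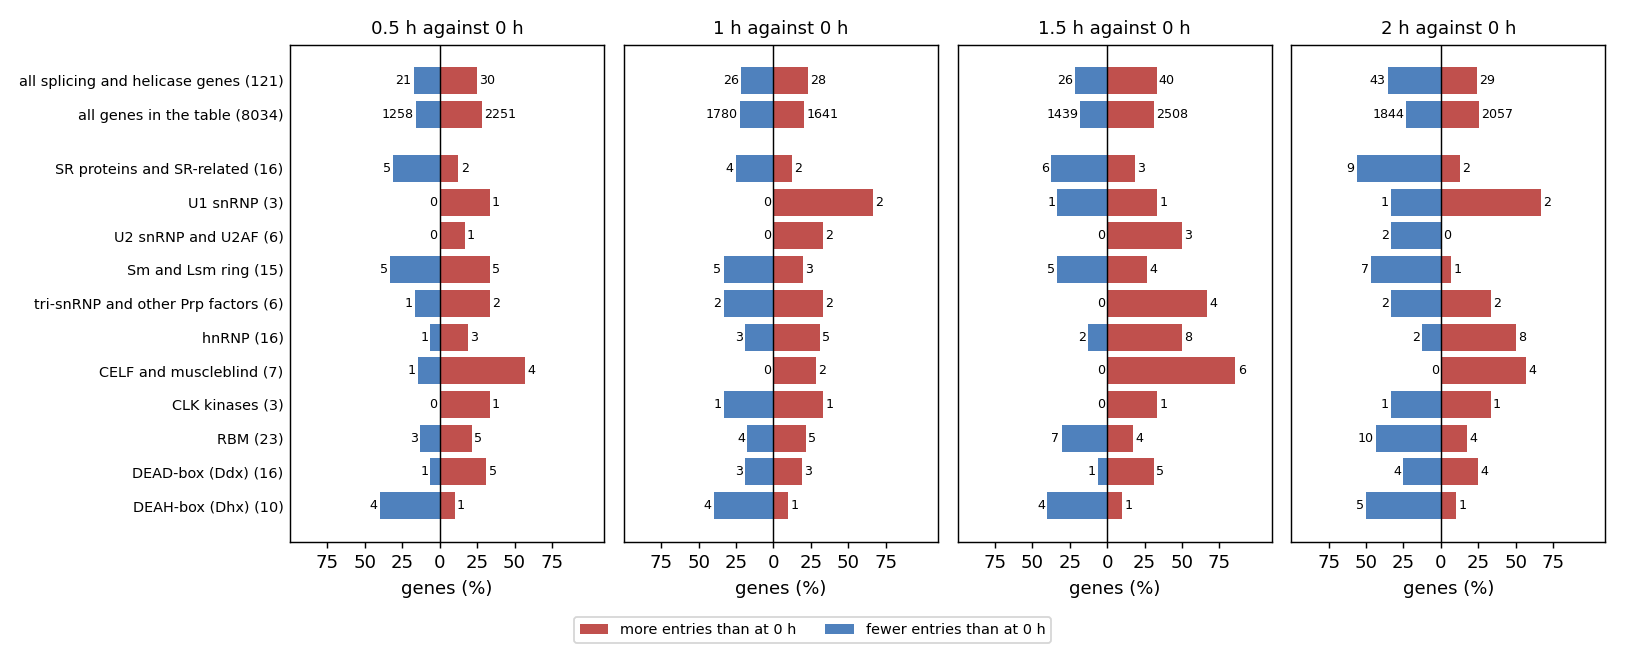
Share of genes (%) with more entries (red, to the right) and fewer entries (blue, to the left) than at 0 h, in 1 panel per later time; rows are all 121 genes, all 8034 genes and the 11 roles, with group sizes in brackets and gene numbers beside the bars. At 2 h the SR row has 9 genes to the left and 2 to the right, and the hnRNP row 2 to the left and 8 to the right. With values scaled to equal totals, where covered genes with equal entries count as lower, the hnRNP numbers were 11 lower and 5 higher.

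The hnRNP genes were covered throughout, all 16 of them in all 5 libraries. At 2 h 8 held more and 2 fewer entries than at 0 h (50% and 12.5%, against 25.6% and 23.0% of all genes). Of all genes covered at 0 h the shares were 26.2% and 31.5%. At 1.5 h the numbers were likewise 8 and 2, beside 31.2% and 17.9% of all genes, and of all genes covered at 0 h 33.3% and 24.6%. With values scaled to equal totals, genes with equal entries count as lower. On that scale 5 were higher and 11 lower at 2 h, and 6 and 10 at 1.5 h. Relative to the median of all genes on that scale, 8 were above and 8 below at 2 h, and 7 and 8 at 1.5 h. Hnrnpdl (chr5:100039399-100039404, 532 bp inside the gene), an hnRNP D-like protein, held 2, 6, 5, 5 and 5 entries, a log2 ratio of 1.22 at 0.5 h and 1.00 at each later time. With values scaled to equal totals these ratios were 0.87, 0.93, 0.50 and 0.61, and none was past 2-fold. Its lone low value was that of 0 h. All 8 of its sites shared the later values, and the 5 farthest into the gene held 1 entry at 0 h. A site of the gene Enoph1 lies 444 bp away and has the same 5 values, so both genes may be read from 1 region. Hnrnpr (chr4:136310994-136310997, 52 bp inside the gene), which binds RNA in axons as well as the nucleus, held 1, 4, 2, 3 and 3, with log2 ratios of 1.32, 0.58, 1.00 and 1.00, of which those at 1.5 and 2 h were 0.55 and 0.65 on the scaled values. Hnrnpk, a poly(C)-binding protein, held 3, 3, 4, 5 and 5, and Hnrnpu, a scaffold-attachment protein, held 2, 4, 2, 4 and 4. Neither was past 2-fold. Hnrnpa1 and Hnrnpf were the 2 lower at 2 h.

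Of the 16 SR and SR-related genes 2 held more and 9 fewer entries at 2 h than at 0 h, beside 25.6% and 23.0% of all genes, and with values scaled to equal totals 1 and 12, beside 22.6% and 56.8%. With the mean over all sites of a gene in place of 1 site these numbers were 5 and 7, and at 1.5 h that choice turned 3 higher and 6 lower into 7 and 4. On the chosen sites the genes had at 2 h a median log2 ratio of -0.37, against 0.00 over all genes. Their mean was 1.81 entries at 2 h, against 2.50 at 0 h. Srsf1 (chr11:88048311-88048312, 1812 bp inside the gene), the founding SR protein, held 4, 4, 2, 3 and 1 entries, a log2 ratio of -1.32 at 2 h. It was highest at 0 and 0.5 h and lowest at 2 h. Srsf3 held 4, 3, 4, 2 and 2, and Tra2b, an activator of exons with GA-rich enhancers, held 4, 4, 3, 2 and 2. Both were lowest in the 1.5 and 2 h libraries, without passing 2-fold. Srsf5 held 4 at 0 h and 3 at each later time, and Srsf9 held 2, 2, 2, 1 and 1. The 2 genes higher at 2 h were Srsf4, with 3, 2, 3, 3 and 4, and Srrm2, a large scaffold protein of nuclear speckles, with 2, 4, 3, 3 and 3. The difference between SR and hnRNP genes was not tested, since each time has 1 library.

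The Sm, Lsm, U1, U2 and Prpf genes were covered in every library, apart from Luc7l, as were 69.0% of all genes. Not every gene in the Sm and Lsm group encodes an snRNP protein. Lsm1, Lsm14a and Lsm14b are among its 15 genes, and each held fewer entries at 2 h than at 0 h. At 2 h 1 of the 15 Sm and Lsm genes held more and 7 fewer entries than at 0 h (6.67% and 46.7%, against 25.6% and 23.0% of all genes). All 15 were covered at 0 h, and of all genes covered then 26.2% held more and 31.5% fewer. On the scaled values, where genes with equal entries count as lower, 1 was higher and 14 lower, and 1 was above and 13 below the median of all genes. Lsm7 (chr10:80855203-80855206, at the gene's 5′ end), of the ring that caps U6 RNA and, with Lsm1, acts in mRNA decay, held 2, 6, 1, 2 and 2 entries, a log2 ratio of 1.22 at 0.5 h, or 0.87 with values scaled to equal totals. Lsm6 (chr8:78820795-78820802) of the same ring held 1, 4, 2, 2 and 2, a log2 ratio of 1.32 at 0.5 h. In both genes the 0.5 h library stood alone. Lsm7 shares its values with Sppl2b, whose site lies 53 bp away. Lsm3 (chr6:91515999-91516001), also of the ring, held 3, 2, 3, 2 and 1, a log2 ratio of -1 at 2 h. Lsm1 held 4, 3, 3, 3 and 2, and Lsm11, of the U7 snRNP that processes histone transcripts, held 4, 2, 2, 3 and 3. Both had their highest value at 0 h.

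Among the U2 genes Sf3b1 (chr1:55027174-55027180, 321 bp inside the gene), which holds the branch site, held 5 entries at 1 h and 2 at each other time, a log2 ratio of 1.00, or 0.93 with values scaled to equal totals. Both of its sites had these values. Sf3a2 of the same complex held 4, 4, 4, 5 and 3, and U2surp held 3, 4, 4, 4 and 2. Their lowest values were at 2 h. U2af1, the partner of U2af2 that reads the 3′ splice site, held 2 at 1.5 h and 1 at each other time. Luc7l (chr17:26253578-26253582, 679 bp inside the gene), homologous to a yeast protein of the U1 snRNP, held 0, 2, 2, 3 and 2, and was uncovered at 0 h only. Its paralogues Luc7l2 and Luc7l3 held 3, 3, 5, 3 and 4, and 3, 3, 3, 2 and 2. Prpf4 (chr4:62408854-62408855, 92 bp inside the gene), of the tri-snRNP that brings U4, U6 and U5 to the intron, held 2, 5, 5, 3 and 3, with log2 ratios of 1.00 at 0.5 and 1 h, or 0.66 and 0.93 with values scaled to equal totals. Prpf3, its partner, held 2, 2, 1, 3 and 1, so the 2 genes did not follow the same order of libraries. The chosen site of Prpf6 lies 8508 bp upstream of that gene and 69 bp from a site of Zfp512b, and its values of 2, 1, 3, 3 and 1 may not be those of its own promoter.

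Of the 7 CELF and muscleblind genes 3 were past 2-fold at some time (42.9%, against 22.6% of all genes). At 2 h 4 of them held more entries than at 0 h and 0 fewer, beside 25.6% and 23.0% of all genes. At 1.5 h 6 held more and 0 fewer, beside 31.2% and 17.9% of all genes. With values scaled to equal totals, where covered genes with equal entries count as lower, 4 were higher and 3 lower at both times. Relative to the median of all genes on that scale, 4 were above and 3 below at 2 h, and 6 and 1 at 1.5 h. Mbnl1 (chr3:60501474-60501481), which promotes adult exon patterns in muscle and brain, held 0, 2, 0, 2 and 3 entries, 28915 bp from the gene's 5′ end, with log2 ratios of 1.58 at 0.5 and 1.5 h and 2.00 at 2 h. At its site nearest the 5′ end, still 28495 bp from it, all 3 of these ratios were 0.00. It was uncovered at 0 and 1 h and covered in the other 3 libraries. Mbnl3 held 2, 4, 2, 3 and 4. Celf2 (chr2:6872123-6872123), an antagonist of muscleblind proteins at many exons, held 2, 0, 2, 4 and 2 entries, 524218 bp into its long gene, a log2 ratio of -1.58 at 0.5 h. At its site nearest the gene's 5′ end, still 523589 bp from it, that ratio had the opposite sign, 1.58. Celf4 (chr18:25487229-25487233), a regulator of neuronal transcripts, held 0, 0, 0, 3 and 2 entries, 267287 bp into the gene. Its site 134 bp inside the gene held 0, 2, 0, 0 and 2, so the times at which the gene was covered depended on the site. Celf1 held 2, 4, 4, 3 and 2, Celf6 held 1 at 0 h and 2 later, and Celf5 held 2 throughout.

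The RBM genes were the largest group, with 23. At 2 h 10 of them held fewer and 4 more entries than at 0 h (43.5% and 17.4%, against 23.0% and 25.6% of all genes). With values scaled to equal totals 17 were lower and 2 higher, and 14 were below and 8 above the median of all genes. Rbm39 (chr2:156179859-156179862, 376 bp inside the gene), a splicing coactivator related to U2af2, held 2, 3, 0, 3 and 0, with a log2 ratio of -1.58 at 1 and at 2 h. It was covered at 0, 0.5 and 1.5 h only, and its other 4 sites held 3 entries at 0.5 and 1.5 h and 0 at the other times. Rbm10 (chrX:20618328-20618332), a regulator of exon skipping, held 3, 3, 3, 2 and 0, a log2 ratio of -2 at 2 h, on its single site 971 bp inside the gene. Rbm11 (chr16:75593051-75593052), a tissue-restricted splicing regulator, held 3, 2, 1, 1 and 1, a log2 ratio of -1 at 1, 1.5 and 2 h. Its values at 1 h and after were the lowest. Rbm38 held 1 at 0 h and 2 later, and Rbm7, of an RNA surveillance complex, held 2, 2, 3, 3 and 3.

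Of the 16 DEAD-box genes 4 held more and 4 fewer entries at 2 h (25% each, against 25.6% and 23.0% of all genes). With values scaled to equal totals 2 were higher and 12 lower, and 6 were above and 10 below the median of all genes. Ddx6 (chr9:44604864-44604869, 1881 bp inside the gene), which represses translation and promotes mRNA decay in P-bodies, held 6, 2, 2, 5 and 2, with log2 ratios of -1.22 at 0.5, 1 and 2 h and -0.22 at 1.5 h. It was high at 0 and 1.5 h and low at the other times. At 0 and 1.5 h all 7 of its sites held the same values of 6 and 5, whereas at 1 h 4 of the sites were at 0. Ddx39b, which loads export factors and acts at the branch site, and the nucleolar gene Ddx50 both held 3 at 0 h and 4 at each later time. Of the 10 DEAH-box genes 1 held more and 5 fewer at 2 h, and 1 and 8 on the scaled values. Dhx9, RNA helicase A, held 6, 4, 3, 3 and 4, and Dhx15, which disassembles spliceosomes, held 5, 4, 4, 3 and 4. Both were highest at 0 h, without passing 2-fold. Dhx32 (chr7:133776583-133776583, 6202 bp inside the gene) held 3, 2, 1, 3 and 2 at all 4 of its sites, a log2 ratio of -1 at 1 h. The 3 CLK genes, kinases that phosphorylate SR proteins, had 1 higher, 1 lower and 1 equal at 2 h.

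The 10 genes at 0 in all libraries had 60 sites, and 0 of the sites was ever covered. They include genes known for expression in the germ line, namely Ddx4, the mouse vasa homologue, Ddx43, Rbm46 and Rbmxl2, a testis retrogene with 27 sites. Srrm3 and Srrm4 regulate neuronal microexons, Rbm24 is a muscle splicing regulator and Rbm47 a cofactor of RNA editing. Srsf12 is an SR protein and Dhx35 a helicase of the spliceosome. The chosen sites of 3 of these lie far inside the gene, 61366 bp for Srrm3, 44514 bp for Dhx35 and 129326 bp for Rbm47. The site of Srrm4 lies 692 bp inside the gene and those of Ddx4 from 213 to 334 bp.

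Counted over sites, the 121 genes showed more difference between libraries than counted over genes. The covered share of their 543 sites was 60.8, 75.9, 70.2, 80.8 and 78.3% in order of time, against 47.6, 58.7, 51.2, 66.9 and 65.7% of all sites. Of 213 sites uncovered at 0 h the later libraries covered 88, 60, 110 and 103 in order of time, and 83, 59, 105 and 88 of these belonged to genes already covered at 0 h. Most of the 213 lay in such genes: 60 were of the 10 genes never covered, and Celf4, Luc7l and Mbnl1, also uncovered at 0 h, had 10, 1 and 12 sites. Of 330 sites covered at 0 h, 6, 9, 1 and 8 were lost in order of time. Gains and losses were not counted over all sites, so they have no background here. Neighbouring sites share entries: of 1312 pairs at most 200 bp apart, over the 5 libraries, 93.2% held equal values, and in all 89 pairs that differed 1 site was at 0. Sites of a gene are thus not independent, and intervals over sites cover counting error only.

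**Figure D3:**
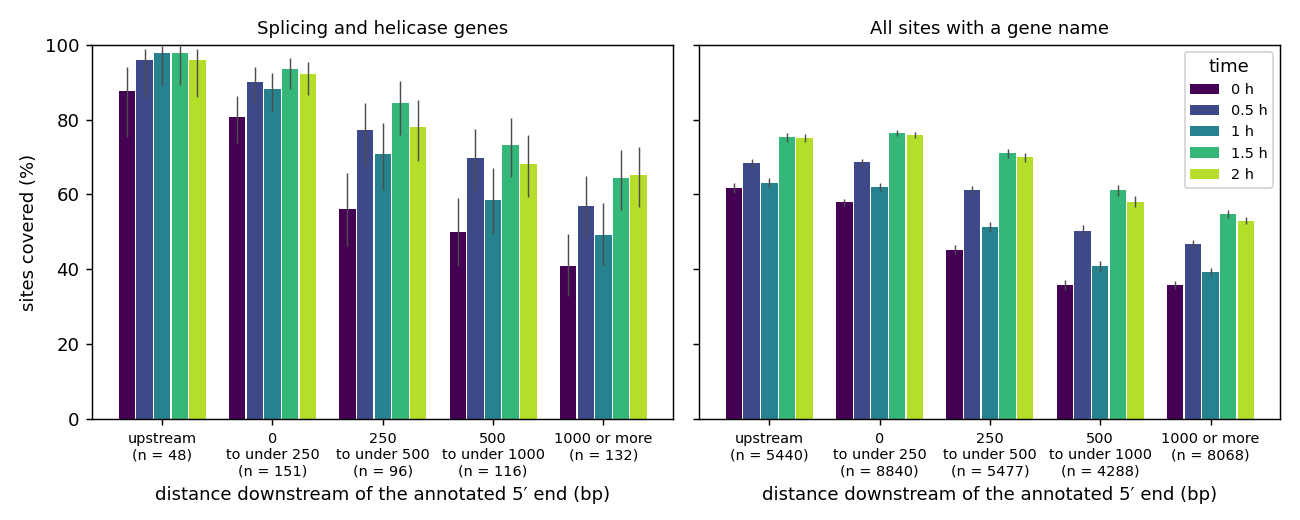
Sites covered (%) by distance from the annotated 5′ end of the gene, for the 543 sites of the splicing and helicase genes (left) and all sites with a gene name (right); bars are the 5 libraries in order of time, lines are Wilson 95% intervals over sites, and n is the number of sites. On the left, sites 500 to under 1000 bp downstream were covered in 73.3% of cases at 1.5 h and 58.6% at 1 h, against 50% at 0 h, and upstream sites in 97.9% at both times, against 87.5%.

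At 1.5 h the covered share stood farther above that of 0 h at sites 250 bp or more inside the gene than at sites nearer its 5′ end. The nearer sites were already covered in 87.5 and 80.8% of cases at 0 h, so their share had less room to rise. Taken as a part of the sites uncovered at 0 h, the net rise was largest upstream and smallest at 1000 bp or more. Upstream of the 5′ end 97.9% of 48 sites were covered at 1.5 h, against 87.5% at 0 h, and from 0 to under 250 bp downstream 93.4% of 151 sites, against 80.8%. From 250 to under 500 bp downstream these shares were 84.4% against 56.2% of 96 sites, from 500 to under 1000 bp 73.3% against 50% of 116 sites, and at 1000 bp or more 64.4% against 40.9% of 132 sites. At 1 h not every distance of 250 bp or more stood farther above its 0 h share than the nearer sites did. The net rise as a part of the uncovered sites was again largest upstream and smallest at 1000 bp or more. From upstream to 1000 bp or more, 97.9, 88.1, 70.8, 58.6 and 49.2% were then covered. Over all named sites the shares at 1.5 h were 61.2% against 35.8% at 500 to under 1000 bp, but 54.7% against 35.9% at 1000 bp or more, about the same distance as the 76.4% against 57.9% at 0 to under 250 bp. In the 40 splicing and helicase genes with 5 or more sites, 194, 270, 244, 297 and 286 of 385 sites were covered in order of time. Every site of the gene was covered in 13, 21, 17, 27 and 22 of these genes. Neither count was made over all genes with 5 or more sites, so both lack a background here. Over all sites the covered share was likewise lowest at 0 h. It was 47.6, 58.7, 51.2, 66.9 and 65.7% in order of time.

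Single genes show the edge of the covered stretch at different positions. In Hnrnpa0, an intronless hnRNP gene with 24 sites, 4, 8, 9, 13 and 11 sites were covered in order of time. The covered site farthest downstream lay 259 bp upstream of the 5′ end at 0 h, 65 bp upstream at 0.5 h, 23 bp upstream at 1 h, 234 bp inside the gene at 1.5 h and 33 bp inside it at 2 h. In Hnrnpk 6 of 13 sites were covered at 0 h, up to 1286 bp inside the gene, and 13, 12, 13 and 13 later, up to 1883 bp. In Srsf4 5 of 14 sites were covered at 0 h and 13, 14, 14 and 14 later. In Srsf10, a splicing repressor active when dephosphorylated, the first 3 of 10 sites were covered at 0 h and 9, 10, 9 and 9 sites later, although its value was lowest at 2 h with 2 entries. Srsf6 held 2 entries at every covered site in every library, but 11 of its 24 sites were covered at 0 h and 19, 19, 21 and 22 later. In Mbnl1 0, 2, 0, 3 and 11 of 12 sites were covered, those at the far end first.

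**Figure D4:**
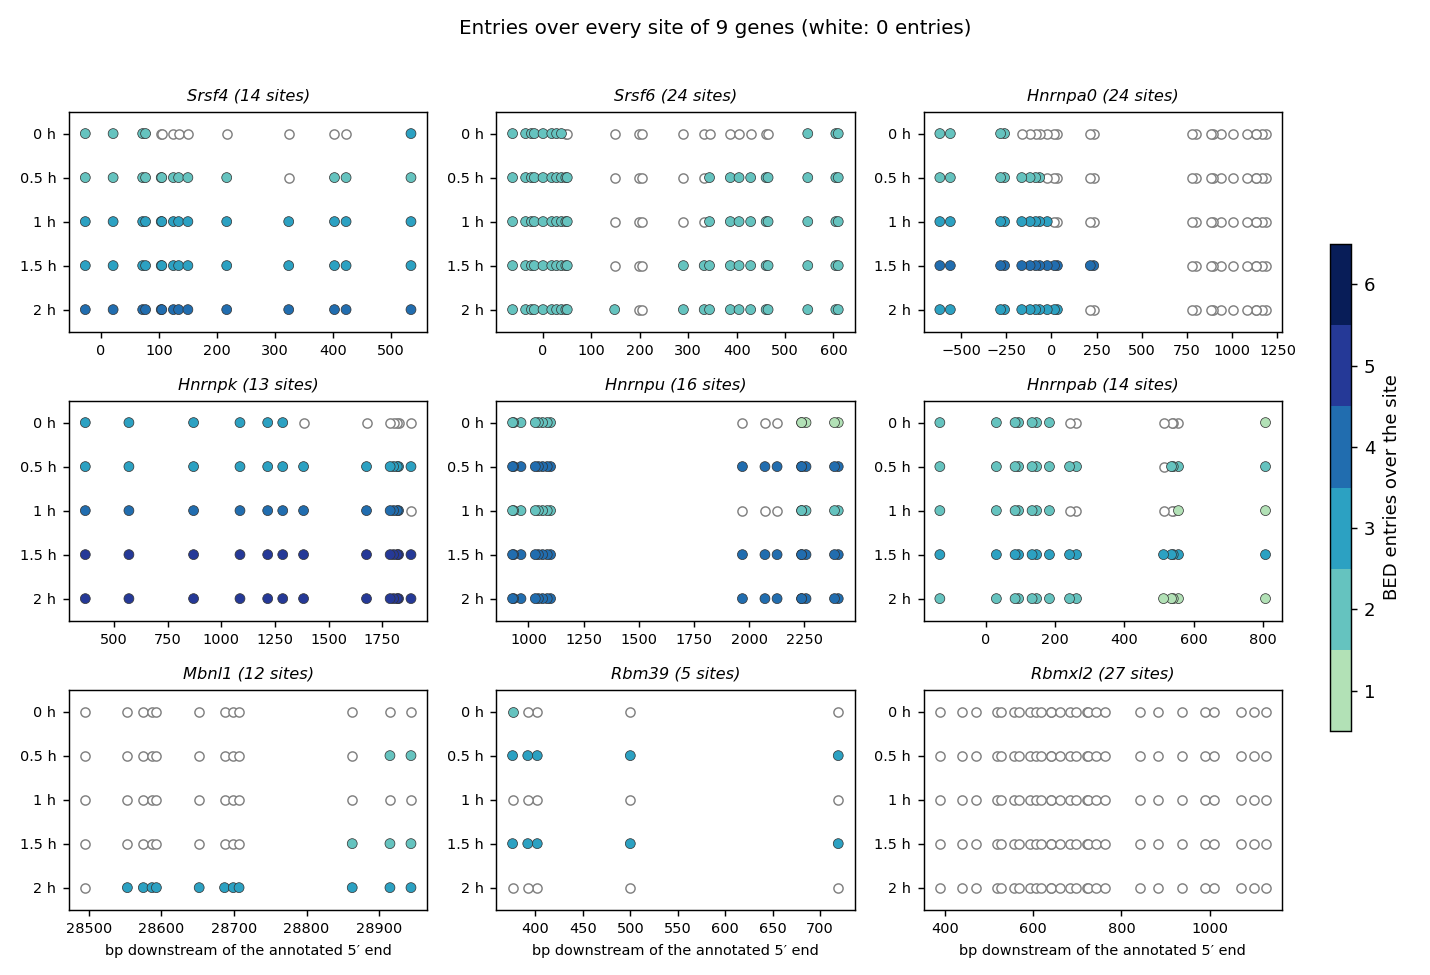
Entries over every site of 9 genes, with distance from the annotated 5′ end of the gene in bp on the x axis and the 5 libraries from 0 h at the top to 2 h at the bottom; white circles are sites at 0 and darker circles hold more entries. In Hnrnpa0 and Hnrnpk the coloured circles reach farther to the right at 1.5 h than at 0 h, in Rbm39 they are seen at 0, 0.5 and 1.5 h only, and in Rbmxl2 at no time.

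Promoter sequence was compared as a description. RefSeq windows from 250 bases before to 50 after a start were at hand for 107 of the 121 genes and for 5917 of all 8034. The median ratio of observed to expected CpG was 0.945 in the splicing and helicase genes, against 0.846 in all genes, and was 0.769 in the 10 never covered. CCGGAAG, the core bound by ETS factors, was found on either strand in 27 of 107 windows (25.2%), against 14.8% of all windows, and TGACGT, part of the CRE element, in 26 (24.3%), against 11.7%. Among genes covered in all libraries these shares were 28.0% against 18.1%, and 26.9% against 13.5%. GGGCGG, a GC box, was as frequent in these genes as in all, at 74.8% each. CCAAT was found in 37.4%, against 34.1%, GCATGCG in 9.35%, against 6.57%, AAGATGG in 3.74%, against 5.54%, and TATAAA in 3.74%, against 6.81%. The windows with CCGGAAG include those of Srsf7, Hnrnpf and Dhx9, and those with TGACGT include Ddx3x, Srsf3 and Tra2b. A match is a run of letters and does not show binding.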

How the data were processed

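Per the submitters' processing notes, the authors used Bowtie2, MACS2 and deepTools with the build GRCm38 (mm10). Neither versions, read shifting nor peak thresholds are given in the sources used here. A deposited table gives a coverage signal per site, a whole number in a column named after each library's BED file per the file headers. That it counts BED entries is an inference from the values, and no count model or scaling was used. Log2 ratios used a pseudocount of 1. Distances are to gene 5′ ends of RefSeq GRCm38.p6, and promoter sequences are RefSeq's. The genes and lists were chosen with earlier results of these data known. Values are given for genes past 2-fold at any later time, covered in all libraries but 1, among the 10 highest means, or at 0 throughout (1 such gene is counted but not reported here), and for other splicing genes past 2-fold at 2 or more later times; further genes were named after their values were seen, as examples within a role. Alternatives were another choice of site, scaling, pseudocount, filters and the reading of the name rule. Python 3.11.15, numpy 2.4.6, pandas 2.3.3, scipy 1.17.1 and matplotlib 3.10.9 were used.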

Additional observations from a re-analysis of the deposited data

How the results depend on the processing

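No paired analysis was possible because each time has 1 library, and for the same reason no library could be left out. The number of covered genes stayed within 1.5 times its value under every alternative run, and so did every count with a pseudocount of 0.5. Small counts moved. With the site nearest the 5′ end, genes lost were 0 at 0.5 h and 2 at 1 h, 1 was past 2-fold downward at 0.5 h, and of 34 single 2-fold differences 29 kept their call, 4 showed no difference (Mbnl1 at 0.5, 1.5 and 2 h, Celf4 at 1.5 h) and 1, that of Celf2 at 0.5 h, reversed to 1.58. The nearest sites of Mbnl1 and Celf2 still lie 28495 and 523589 bp inside the gene. With the mean over all sites, 0 were lost and 1 was past 2-fold downward at 0.5 h, and 11, 8, 14 and 9 were past it upward in order of time. With 2 or more entries as covered, 9, 7, 11 and 9 were gained and 3, 6, 5 and 12 lost. With the name rule needing 1 further character (102 genes), 1 and 0 were gained at 0.5 and 1 h, and 4 up and 1 down were past 2-fold at 0.5 h. With only the 77 genes whose mean reached that of the median gene, 2 and 2 were past it upward at 1.5 and 2 h, and 1, 2 and 0 downward at 0.5, 1 and 1.5 h. With values scaled to equal totals, the median was -0.26 at 0.5 h, -0.39 at 1.5 h and -0.30 at 2 h. On these values 19 and 19 genes were higher at 1.5 and 2 h. In order of time, 89, 81, 92 and 92 were lower (73.6, 66.9, 76.0 and 76.0%, against 54.6, 55.1, 60.2 and 56.8% of all genes). Every later library was multiplied by a factor below 1, so a covered gene with equal entries counts as lower. Genes at 0 in both libraries stay equal. At 0 h 10.7% of the splicing and helicase genes were at 0, against 27.2% of all genes. The shares of lower genes on the scaled values thus do not compare like with like. On that scale 24 of the 34 single differences kept their call, and 10 were under 2-fold in the same direction, namely those of Hnrnpdl, Prpf4, Lsm7 and Sf3b1 and those of Hnrnpr at 1.5 and 2 h; 2, 1, 3 and 3 were past 2-fold upward, and 5 and 10 downward at 1.5 and 2 h. Chosen after seeing the data, a limit of 1000 bp to the 5′ end (102 genes) gave 1, 1 and 1 gained at 0.5, 1.5 and 2 h, 0 lost at 0.5 h, 3 and 3 past 2-fold upward at 1.5 and 2 h, and 0 and 2 downward at 0.5 and 1 h. Unscaled, the alternatives for any higher or lower value, also added later, stayed within 1.5 times. Causes were not tested.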

Other observations

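Splicing genes outside the name rule, from a list of 97 of which 60 were in the table, were covered about as often, in 53, 55, 52, 55 and 54 cases in order of time. The shares of them past 2-fold upward and downward lay near those of all genes at 0.5, 1.5 and 2 h. At 0 h 7 of the 60 were uncovered, against 27.2% of all genes, so these shares do not compare like with like. At 0.5 h 6 and 0 of the 60 were past it (10.0% and 0%, against 8.05% and 2.20% of all genes), at 1 h 1 and 2 (1.67% and 3.33%, against 4.62% and 5.04%), at 1.5 h 7 and 1 (11.7% and 1.67%, against 11.2% and 1.83%) and at 2 h 5 and 2 (8.33% and 3.33%, against 9.35% and 3.47%). On all 60 the median log2 ratio was 0.00 at each time. Pdcd7, a protein of the minor spliceosome, held 0, 5, 3, 6 and 4 entries and was uncovered at 0 h only. Ptbp1, the polypyrimidine tract-binding protein that represses neuronal exons in progenitors, held 0, 5, 0, 1 and 0. Its high value was that of 0.5 h alone. Fubp1, a single-stranded nucleic acid-binding regulator, held 1, 5, 2, 4 and 2. Raly, an hnRNP relative, and Dyrk1a, a kinase of splicing factors, both held 1, 3, 2, 3 and 3. Pcbp1, a poly(C)-binding protein, held 1, 1, 0, 4 and 3. Ncbp2, a subunit of the nuclear cap-binding complex, held 3, 2, 2, 1 and 1, the one of these 7 genes that was lower at 1.5 and 2 h.

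Among the 121 genes, 15 had a chosen site within 500 bp of a site of another gene, and 13 of these shared all 5 values with it. Hnrnpa1 shared them with Cbx5 at 418 bp, Lsm1 with Bag4 at 298 bp and Sf3a2 with Plekhj1 at 352 bp. Srsf1 and Gm11508, 331 bp apart, differed at 2 h, with 1 and 0 entries.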
